A study of Mus musculus with 2 samples.

Results

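The CDK inhibitors and D-type cyclins are the 10 genes Cdkn1a, Cdkn1b, Cdkn1c, Cdkn2a, Cdkn2b, Cdkn2c, Cdkn2d, Ccnd1, Ccnd2 and Ccnd3, read here by every gene probe that carries one of these symbols in the scanner files. They had 15 probes among 41174 probes on the array, and 10 genes among the 21337 named ones. The rule goes by gene symbol. A probe was tested when, on each array, its signal stood well above background in 1 channel or more. Of the 15 probes 14 met this, and every member gene had at least 1 tested probe.

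The study compared total RNA of mouse keratinocytes on 2 two-colour Agilent arrays, numbered as replicates 1 and 2. On each array the Cy5 channel held RNA of keratinocytes labelled Chuk-deleted, named CHUK-LoxP mutant in the titles, and the Cy3 channel held RNA of wild-type keratinocytes. Chuk encodes IKKα, a kinase needed for the epidermis to mature, and loxP sites mark a stretch of DNA for removal by Cre recombinase. The labels give no Cre driver, strain, age, passage or number of animals. They do not say whether the RNAs of the replicates came from separate cultures, so the p-values measure only the spread between 2 arrays, which may be technical. After loess the limma fit takes this spread largely from all tested probes together, with 5.16 prior degrees of freedom beside 1 residual degree. A gene's p-value therefore does not follow its own SD alone.

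D-type cyclins bind the kinases CDK4 and CDK6, and these complexes phosphorylate the retinoblastoma protein, which frees E2F factors to switch on genes of DNA replication. The INK4 inhibitors, made from Cdkn2a, Cdkn2b, Cdkn2c and Cdkn2d, bind CDK4 and CDK6 directly, while the CIP/KIP inhibitors, made from Cdkn1a, Cdkn1b and Cdkn1c, bind complexes of cyclins with their kinases and restrain above all CDK2. In the epidermis this balance helps to set when a basal cell divides and when it leaves the cycle to differentiate.

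No dye swap is named in the labels, so the dye and the genotype of a channel cannot be told apart. The direction of every ratio rests on the channel labels alone, and every sign would turn if the labels were exchanged. The channel labelled Chuk-deleted had the higher signal at both Chuk probes, by 1.67-fold and 1.81-fold, and the place of these probes relative to the deleted stretch is not known here. Both arrays came from 1 slide and 1 scan. The median spot intensity was 218 and 171.5 in Cy5 against 109.9 and 95.2 in Cy3 on arrays 1 and 2, and the number of arrays limits the precision. After loess the median log2 ratio of all tested genes was 0.02. It was 0.55 when each array was instead centred on the median of all its gene spots, dim and untested ones included. Unlike loess, this centring does not remove a dye difference that changes with intensity. The median of the tested genes was -0.74 when each array, after loess, was lowered by the mean of its spike-in controls. Rose and fell below therefore describe a gene's log2 ratio after loess, past the threshold of the limma fit, and so its place relative to the other genes on the array.

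Among the 10 member genes 5 rose (Cdkn1c, Cdkn2a, Cdkn2b, Ccnd2 and Ccnd3), 4 fell (Cdkn1a, Cdkn1b, Cdkn2c and Ccnd1), and Cdkn2d passed the test in neither direction. Over all 13739 genes tested, 33.0% rose and 28.3% fell, so calls were common everywhere on these arrays. None of the members differed 2-fold on both arrays, where 1.50% of all genes were at least 2-fold higher and 3.21% at least 2-fold lower. The split between directions depended on the scaling. Median centring gave 8 members higher and 0 lower, beside 10270 and 988 of all genes. Scaling on the spike-ins gave 0 members higher and 9 lower, beside 272 and 12503 of all genes. The smallest adjusted p-value of a member gene was 2.9e-23 under median centring and 9.8e-32 under spike-in scaling, against 0.00013 after loess (limma with Benjamini-Hochberg adjustment). The fit's estimate of spread thus differed between these settings, and their counts of calls are not like for like. Measured from the median of all genes in each setting, each of the 9 called members lay on the same side in all 10 settings computed on both arrays, while Cdkn2d lay below it in 9 and above it in 1. Spike-in scaling and the change in the estimate of spread could not alter a gene's distance from this median. The filter settings left the members' ratios as they were and moved only the median.

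The members' changes were moderate in size. Their log2 ratios had a median of 0.07, beside 0.02 over all genes. In size, without regard to sign, they had a median of 0.35, beside 0.21 over all genes, and the largest was 0.69. All 15 probes, the untested one included, had the same sign on both arrays. How often this held over all probes was not counted, so the agreement is not read as particular to the members.

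**Figure D1:**
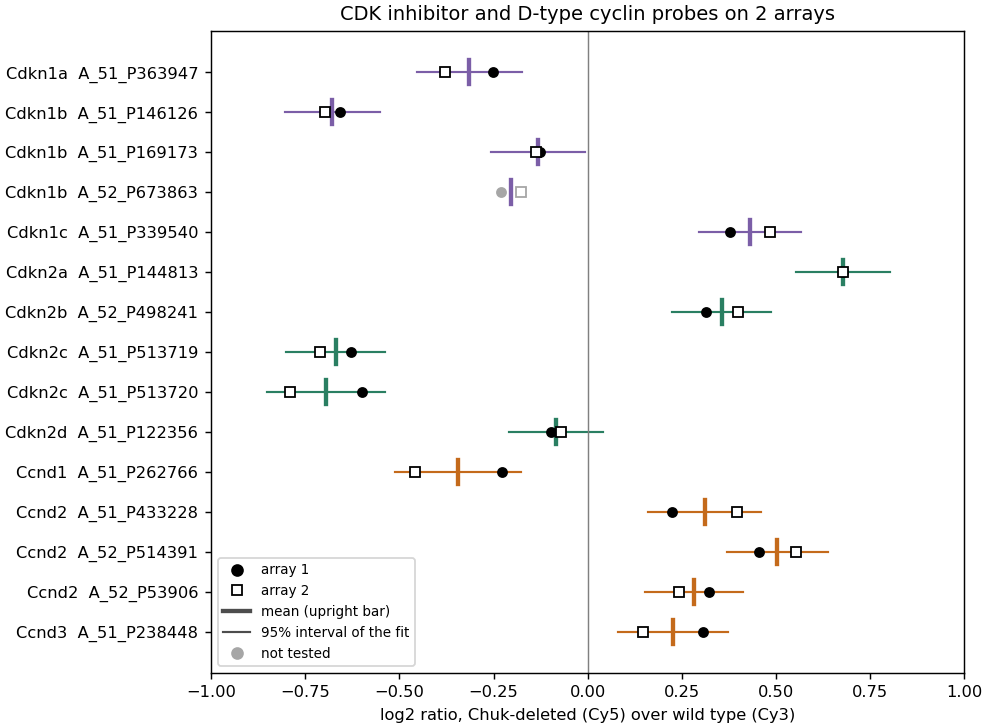
Log2 ratio of the channel labelled Chuk-deleted (Cy5) over wild type (Cy3) after loess, for each of the 15 member probes. Filled circles are array 1, open squares array 2, upright bars the mean and thin lines the 95% interval of the limma fit. Both arrays lie on the same side of 0 for every probe, and how often this held over all probes was not counted. The largest falls are at Cdkn2c and at 1 Cdkn1b probe, and the largest rise is at Cdkn2a. However, the sign of 3 genes (Cdkn1a, Cdkn2d and Ccnd1) turned under median centring and that of 5 genes (Cdkn1c, Cdkn2a, Cdkn2b, Ccnd2 and Ccnd3) under spike-in scaling.

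The CIP/KIP inhibitors moved in different directions: Cdkn1a and Cdkn1b fell and Cdkn1c rose, although Cdkn1a turned higher under median centring and Cdkn1c turned lower under spike-in scaling. Cdkn1a encodes p21, a main target of p53 and an early inhibitor in keratinocytes that leave the cycle. Its probe A_51_P363947 had normalised intensities of 8806 and 6923 in the Chuk-deleted channel, against 10482 and 9002 in the wild-type channel, on arrays 1 and 2. The Chuk-deleted values were lower on both arrays, and the ranges of the channels did not overlap. Here and below, such overlap also depends on how far the arrays differed in brightness. How often ranges stayed apart over all genes was not counted, so this is not read as particular to a member. The mean log2 ratio was -0.32 ± 0.09 (SD, n = 2), which is 1.24-fold lower (adjusted p = 0.00382, limma with Benjamini-Hochberg adjustment).

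Cdkn1b encodes p27, an inhibitor of cyclin E and CDK2 that accumulates in resting cells. Its probe A_51_P146126 read 833 and 367 in the Chuk-deleted channel, against 1316 and 595 in the wild-type channel. The Chuk-deleted value was the lower one on each array, while the channels' ranges overlapped across arrays because array 2 was dimmer. On average the log2 ratio was -0.68 ± 0.03 (SD, n = 2), 1.60-fold lower (adjusted p = 0.000134, limma with Benjamini-Hochberg adjustment), and 11.8% of all genes had a larger ratio in size. The other Cdkn1b probes gave smaller ratios. Probe A_51_P169173, printed as 10 spots, read 131 and 105 in the Chuk-deleted channel, against 143 and 115 in the wild-type channel, with a mean log2 ratio of -0.13 ± 0.008 (SD, n = 2) that missed the threshold (adjusted p = 0.0640, limma with Benjamini-Hochberg adjustment). The third probe, A_52_P673863, was not well above background in either channel on either array and was not tested. The mean over the tested Cdkn1b probes lay 0.42 below the median of all genes, against 0.70 below it for the brightest probe alone, so the size of the Cdkn1b fall depends on the probe.

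Cdkn1c encodes p57, an inhibitor from an imprinted locus that takes part in cell-cycle exit during development. Its probe A_51_P339540 had intensities of 2495 and 1399 in the Chuk-deleted channel, against 1920 and 1000 in the wild-type channel. The Chuk-deleted value was higher on each array. Over both arrays the log2 ratio averaged 0.43 ± 0.07 (SD, n = 2), 1.35-fold higher (adjusted p = 0.000922, limma with Benjamini-Hochberg adjustment).

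**Figure D2:**
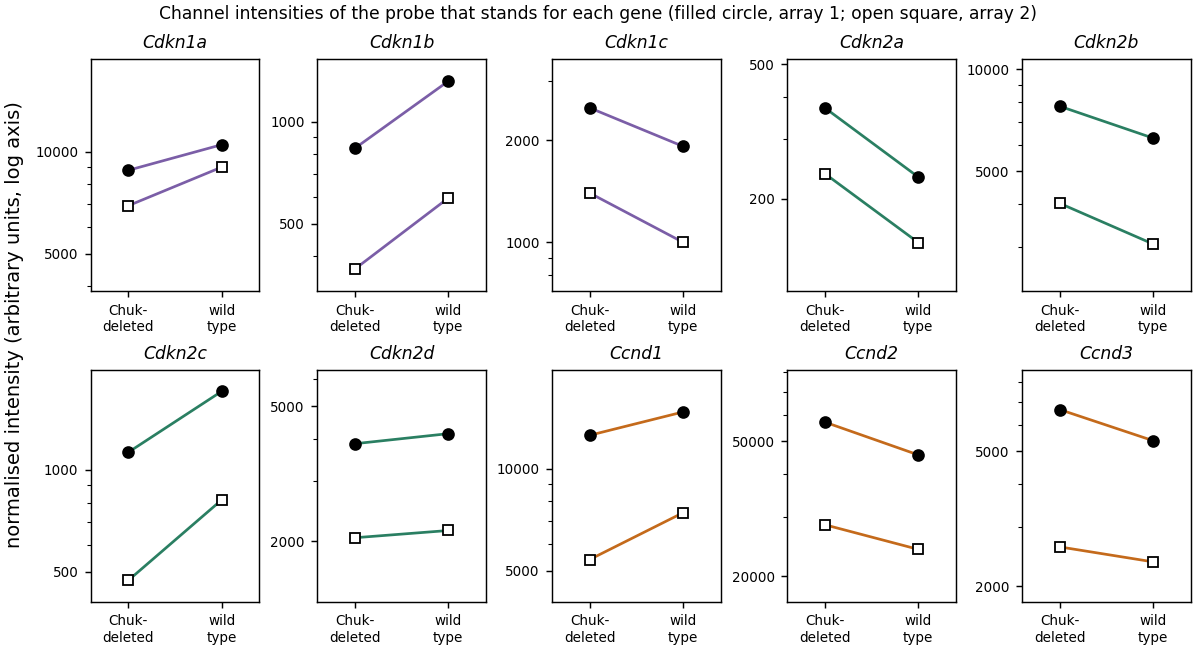
Normalised intensity (arbitrary units, log axis) of the brightest tested probe of each member gene in the Chuk-deleted channel (left in each panel) and the wild-type channel (right), with a line for each array. Every panel spans the same fold range, so slopes can be compared between genes but heights cannot. The slopes of array 1 (filled circles) and array 2 (open squares) run the same way in all 10 panels after loess, with the signs of 8 genes turning under another scaling as given for the plot of ratios by array. How often both arrays shared a sign over all genes was not counted.

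Among the genes that encode INK4 inhibitors, Cdkn2a and Cdkn2b rose and Cdkn2c fell, with Cdkn2a and Cdkn2b turning lower under spike-in scaling and Cdkn2d not past the test after loess. Cdkn2a encodes p16INK4a and, from another first exon and reading frame, p19ARF, which stabilises p53. Its only probe, A_51_P144813, is annotated in the files to transcript variant 1 of the gene, and which of these transcripts its sequence can read was not determined here. The rise is therefore one of the gene's probe and is not assigned to p16INK4a or to p19ARF. The probe had intensities of 372 and 238 in the Chuk-deleted channel, against 232 and 149 in the wild-type channel. The Chuk-deleted values were higher on both arrays, and the lowest of them lay just above the highest wild-type value. Its mean log2 ratio was 0.68 ± 0.002 (SD, n = 2), 1.60-fold higher (adjusted p = 0.00013, limma with Benjamini-Hochberg adjustment), and 11.8% of all genes had a larger ratio in size. The size of this ratio moved with the processing, to 1.05 on the log2 scale with the scanner software's own ratio and to 0.80 with a smaller normexp offset of 16. The software's ratios were 0.91 and 1.19 on arrays 1 and 2, so the arrays lay farther apart than after loess.

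Cdkn2b encodes p15INK4b, an inhibitor that TGF-β raises in keratinocytes, and lies beside Cdkn2a. Its probe A_52_P498241 read 7792 and 4028 in the Chuk-deleted channel, against 6272 and 3054 in the wild-type channel. The Chuk-deleted value was higher on each array. The log2 ratio averaged 0.36 ± 0.06 (SD, n = 2), 1.28-fold higher (adjusted p = 0.00182, limma with Benjamini-Hochberg adjustment). Mtap, the neighbour on the far side of Cdkn2a, had log2 ratios of 0.16 and 0.20 (adjusted p = 0.0230, limma with Benjamini-Hochberg adjustment), and Dmrta1, the neighbour beyond Cdkn2b, was not tested.

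Cdkn2c encodes p18INK4c, which is itself an E2F target in several cell types. Probe A_51_P513720 had intensities of 1126 and 472 in the Chuk-deleted channel, against 1705 and 816 in the wild-type channel. Probe A_51_P513719 had 891 and 583 in the Chuk-deleted channel, against 1377 and 953 in the wild-type channel. Both probes were lower in the Chuk-deleted channel on both arrays, and their means differed by less than the spread between arrays of the first. The channels' ranges overlapped for the first probe and not for the second. Their mean log2 ratios were -0.69 ± 0.14 and -0.67 ± 0.06 (SD, n = 2; adjusted p = 0.000259 and 0.000157, limma with Benjamini-Hochberg adjustment). Among all genes, 11.3% had a ratio larger in size than the first. Faf1, the neighbouring gene, had log2 ratios of -0.47 and -0.37 (adjusted p = 0.000973, limma with Benjamini-Hochberg adjustment). Calls were common, at 61.3% of all genes tested, and a link between neighbours was not tested.

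Cdkn2d encodes p19INK4d, a name close to p19ARF for an unrelated protein. Its probe A_51_P122356 read 3878 and 2047 in the Chuk-deleted channel, against 4152 and 2150 in the wild-type channel. The channels differed little on either array. On average the log2 ratio was -0.08 ± 0.02 (SD, n = 2) with a 95% interval from -0.21 to 0.04 (adjusted p = 0.196, limma with Benjamini-Hochberg adjustment), and 77.1% of all genes had a ratio larger in size.

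The bases before the annotated starts are shown for members with the largest ratios and for Cdkn2b, which neighbours Cdkn2a, because the windows of neighbouring genes that moved the same way differ in their letters. RefSeq windows (GRCm38.p6) were given for 7 of the 10 members, not for Cdkn1c, Ccnd1 and Ccnd2. Each sequence holds the 250 bases before a start, on the gene's own strand. Capitals mark matches, on either strand, to the letters of a GC box (GGGCGG), an E2F site (TTTCCCGC, TTTGGCGC, TTTCGCGC or TTTGCCGC), a CCAAT box (CCAAT) or a TATA box (TATAAA). The Cdkn2a windows are chr4:89294620-89294869 for the upstream start, from which the Arf transcript is known to begin, and chr4:89282193-89282442 for the downstream start. Those of Cdkn2b and Cdkn2c are chr4:89311033-89311282 and chr4:109666757-109667006, all on the minus strand, and that of Cdkn1b is chr6:134920151-134920400 on the plus strand.
Cdkn2a upstream start: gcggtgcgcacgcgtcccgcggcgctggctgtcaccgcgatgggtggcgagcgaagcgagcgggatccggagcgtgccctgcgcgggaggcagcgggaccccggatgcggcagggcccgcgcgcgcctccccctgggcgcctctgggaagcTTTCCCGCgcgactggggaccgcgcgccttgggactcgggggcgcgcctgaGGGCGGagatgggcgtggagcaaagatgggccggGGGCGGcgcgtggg
Cdkn2a downstream start: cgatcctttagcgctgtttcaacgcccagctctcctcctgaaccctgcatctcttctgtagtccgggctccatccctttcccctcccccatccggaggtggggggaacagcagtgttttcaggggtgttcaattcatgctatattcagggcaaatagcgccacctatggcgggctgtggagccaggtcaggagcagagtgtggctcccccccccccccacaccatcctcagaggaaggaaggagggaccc
Cdkn2b: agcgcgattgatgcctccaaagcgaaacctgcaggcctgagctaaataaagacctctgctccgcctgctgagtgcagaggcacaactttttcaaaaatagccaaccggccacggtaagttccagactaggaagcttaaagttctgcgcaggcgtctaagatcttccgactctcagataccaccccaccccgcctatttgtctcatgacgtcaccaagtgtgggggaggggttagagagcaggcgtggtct
Cdkn2c: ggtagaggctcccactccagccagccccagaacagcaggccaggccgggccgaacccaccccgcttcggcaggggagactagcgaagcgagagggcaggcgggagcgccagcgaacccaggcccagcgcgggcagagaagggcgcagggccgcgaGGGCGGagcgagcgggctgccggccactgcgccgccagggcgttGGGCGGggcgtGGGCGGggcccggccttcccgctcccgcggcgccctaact
Cdkn1b: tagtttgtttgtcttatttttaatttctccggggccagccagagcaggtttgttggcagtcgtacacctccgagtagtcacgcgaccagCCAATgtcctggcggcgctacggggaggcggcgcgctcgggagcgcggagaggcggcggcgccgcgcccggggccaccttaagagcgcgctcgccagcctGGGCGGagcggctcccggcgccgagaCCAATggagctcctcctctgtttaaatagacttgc

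The upstream Cdkn2a window held E2F letters 99 bases before the start and GC boxes at 48 and 14 bases. Of all 32851 RefSeq windows of this length, 1.86% held E2F letters, 32.74% a GC box, 33.85% a CCAAT box and 12.37% a TATA box. The downstream Cdkn2a window and the Cdkn2b window held none of these letters. Their base compositions differed as well, with 78.4% G and C before the upstream Cdkn2a start, 60.0% before the downstream one and 53.6% before Cdkn2b, beside a median of 52.4% over all windows. The Cdkn2c window, of the upstream of its annotated starts, held 3 GC boxes and 77.2% G and C, and the window of its other start held no match and 42.8% G and C. The Cdkn1b window held 1 GC box and CCAAT letters at 161 and 35 bases before the start. Matches to the p53 consensus decamer were found before the first Cdkn1a start at 73 and 51 bases, and before the Cdkn2d start at 102 bases, and 7.13% of all windows held such a match. A match here describes letters and not binding, and binding was not measured.

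The D-type cyclins were divided in the same way, with Ccnd1 lower and Ccnd2 and Ccnd3 higher after loess, while Ccnd1 turned higher under median centring and Ccnd2 and Ccnd3 turned lower under spike-in scaling. Ccnd1 encodes cyclin D1, the D cyclin best known from basal keratinocytes and a target of mitogen and β-catenin signals. Its probe A_51_P262766 had intensities of 12541 and 5391 in the Chuk-deleted channel, against 14698 and 7414 in the wild-type channel. The Chuk-deleted value was lower on each array, by a larger ratio on array 2. Over both arrays the log2 ratio averaged -0.34 ± 0.16 (SD, n = 2), 1.27-fold lower (adjusted p = 0.00578, limma with Benjamini-Hochberg adjustment). With the scanner software's ratios the mean was the same to 2 decimals and the call was lost (adjusted p = 0.0549, limma with Benjamini-Hochberg adjustment).

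Ccnd2 encodes cyclin D2, and all 3 of its probes rose. The brightest, A_52_P53906, read 57059 and 28406 in the Chuk-deleted channel, against 45654 and 24026 in the wild-type channel. The Chuk-deleted value was higher on each array. For this probe the log2 ratio averaged 0.28 ± 0.06 (SD, n = 2), 1.22-fold higher (adjusted p = 0.00465, limma with Benjamini-Hochberg adjustment). The intensities of probe A_52_P514391 were 55439 and 28597 in the Chuk-deleted channel, against 40473 and 19491 in the wild-type channel. Probe A_51_P433228 read 33806 and 31745 in the Chuk-deleted channel, against 28960 and 24107 in the wild-type channel, and only for this last probe did the channels' ranges not overlap. In log2 ratio they gave 0.50 ± 0.07 and 0.31 ± 0.12 (SD, n = 2; adjusted p = 0.000488 and 0.00568, limma with Benjamini-Hochberg adjustment). The direction was thus shared by the probes, and the size ranged from 0.28 to 0.50.

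Ccnd3 encodes cyclin D3, known from cells that exit the cycle and differentiate as well as from dividing ones. Its probe A_51_P238448 had intensities of 6646 and 2614 in the Chuk-deleted channel, against 5378 and 2361 in the wild-type channel. The Chuk-deleted value was higher on each array, with the smaller gap on array 2. Its mean log2 ratio was 0.23 ± 0.11 (SD, n = 2), 1.17-fold higher (adjusted p = 0.0177, limma with Benjamini-Hochberg adjustment). This call was also lost with the software's ratios (adjusted p = 0.0613, limma with Benjamini-Hochberg adjustment).

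There were 4 member probes printed as 10 spots on each array, which shows the error within an array. The spots of Cdkn1a, Ccnd1 and Cdkn1b probe A_51_P169173 all lay below 0 on both arrays and those of Cdkn2a all above 0. For Ccnd1 the SD over spots was 0.014 on array 1 and 0.030 on array 2, far less than the SD of 0.16 between the arrays. For Cdkn1a the spots' SD was 0.019 and 0.022, against 0.09 between arrays. Cdkn2a went the other way, with SDs over spots of 0.073 and 0.047 around array means that were nearly equal after loess. The scanner software's own error model, within a single array, gave a p-value under 0.05 in all 10 Cdkn2a spots on both arrays. It did so for Ccnd1 in 0 spots on array 1 and in all 10 on array 2, and for Cdkn1a in 0 and 1 spots.

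**Figure D3:**
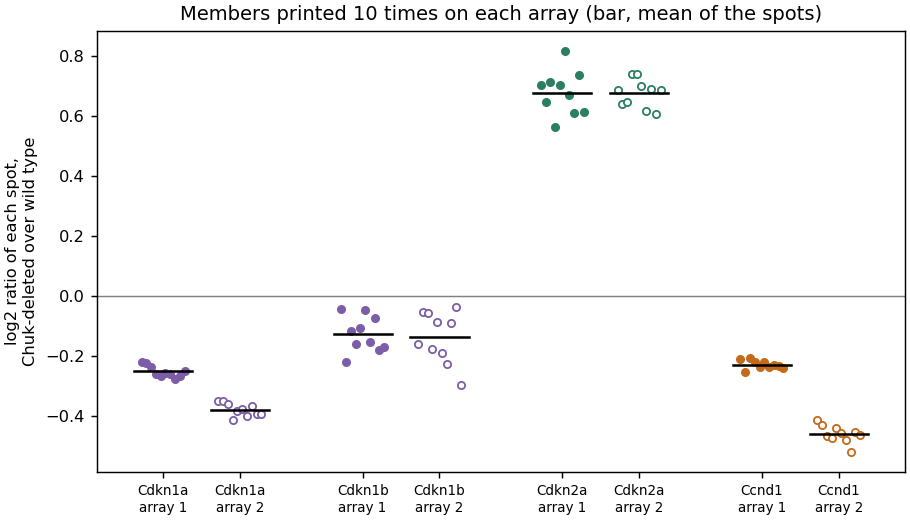
Log2 ratio of Chuk-deleted over wild type after loess for each of the 10 spots of the 4 member probes printed repeatedly, by array, with black bars at the means. Ccnd1 and Cdkn1a spots form tight groups whose means differ between arrays, and Cdkn2a spots are wider around array means of 0.68 on both. The signs of Cdkn1a and Ccnd1 turned under median centring and that of Cdkn2a under spike-in scaling.

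**Figure D4:**
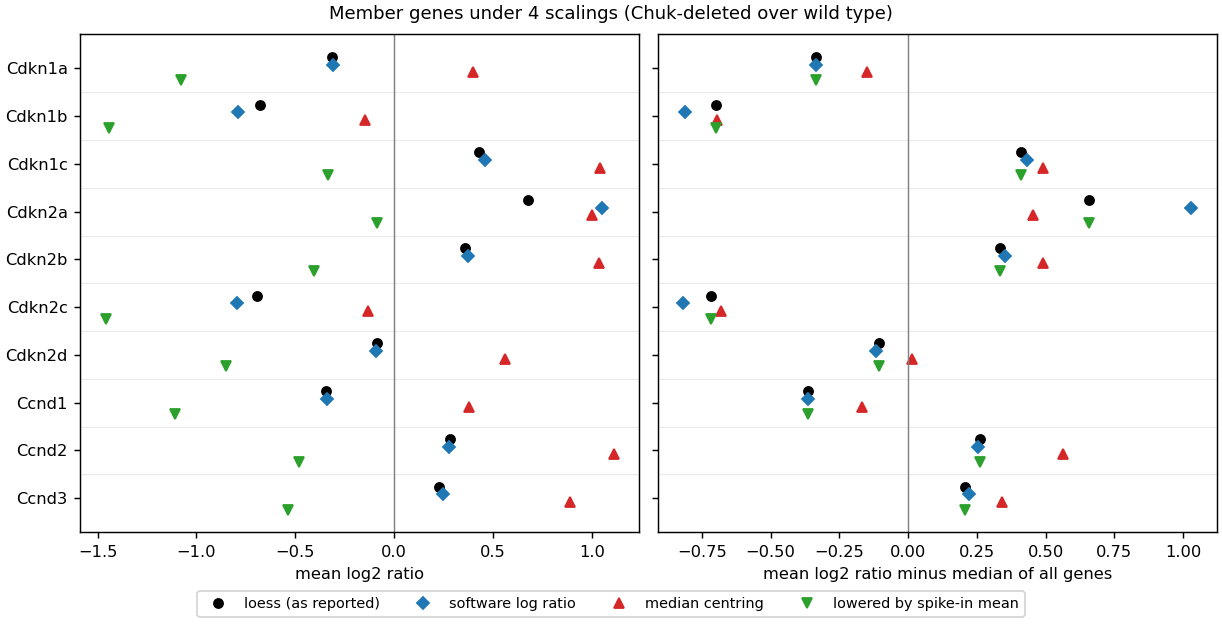
Mean log2 ratio of Chuk-deleted over wild type for the 10 member genes under 4 scalings (left), and the same minus the median of all genes in that scaling (right). On the left, signs turned for Cdkn1a, Cdkn2d and Ccnd1 under median centring and for Cdkn1c, Cdkn2a, Cdkn2b, Ccnd2 and Ccnd3 under spike-in scaling. On the right, each member other than Cdkn2d stays on its side of 0, where the spike-in points repeat the loess points by construction.

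The same comparison was read for the genes around the members, by lists chosen for their roles in this pathway. Over all genes tested, 33.0% rose and 28.3% fell after loess. Median centring called 10270 of all 13739 genes higher and 988 lower, and spike-in scaling 272 and 12503. The share of a list called after loess ran from 42.9% (Ink4/Arf regulators) to 77.8% (G1 kinases and E-type cyclins), beside 61.3% of all genes. No list was tested as a set. Among 9 genes of the G1 kinases and E-type cyclins, 1 rose and 6 fell, with a median log2 ratio of -0.23 beside 0.02 over all genes. The probes of the gene that rose were called in opposite directions, as were those of unnamed genes in some lists below. With the probes of a gene averaged, 0 rose and 7 fell. Median centring gave 6 higher and 1 lower, and spike-in scaling 0 higher and 9 lower. Those with the largest falls were Ccne1 (-0.43) and Ccne2 (-0.39), the E cyclins, their kinase Cdk2 (-0.43) and Cdk7 (-0.38), the kinase that activates CDKs. The D cyclins' own partners, named here outside the rule for named genes and after their values were seen, were Cdk4 at -0.23 (adjusted p = 0.00844) and Cdk6 at -0.09 (adjusted p = 0.179, limma with Benjamini-Hochberg adjustment).

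Of 13 RB family and E2F genes, 6 rose and 1 fell, with a median of 0.13, against 12 higher and 1 lower under median centring and 0 higher and 12 lower under spike-in scaling. The activator E2f2 fell by 1.54 ± 0.60 (SD, n = 2) on the log2 scale, E2f1, another activator, rose by 0.52 ± 0.13 and the repressor E2f7 by 0.33 ± 0.07. Tfdp2, a partner of E2F proteins, rose by 0.55 with its brightest probe, and its probes were called in opposite directions. Among 14 S-phase and proliferation genes 2 rose and 8 fell, with a median of -0.21, against 12 higher and 0 lower under median centring and 0 higher and 14 lower under spike-in scaling. Mcm3 (-0.51) and Cdc45 (-0.34), parts of the replicative helicase, and the mitotic kinase gene Cdk1 (-0.49) fell, and Rrm2 (0.35), a ribonucleotide reductase subunit, rose.

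Of 14 tested genes among the other cyclins, 6 rose and 3 fell (median 0.08), against 12 higher and 1 lower under median centring and 0 higher and 13 lower under spike-in scaling. Ccng2, a cyclin of arrested cells, fell by 1.16 ± 0.12 (SD, n = 2), Ccnt2, a partner of the elongation kinase CDK9, rose by 0.65 and the p53 target Ccng1 rose by 0.32. Ccni fell by 0.34 with its brightest probe, with probes called in opposite directions. In the ubiquitin ligase list, whose products turn over p27, p21 and cyclins, 2 of 14 rose and 5 fell (median -0.05), against 11 higher and 0 lower under median centring and 0 higher and 13 lower under spike-in scaling. Cul4b (-0.57) and its adaptor Ddb1 (-0.47) fell, as did Skp1 (-0.38), and Fbxw7, which marks cyclin E, rose by 0.52 with its brightest probe, with probes called in opposite directions.

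Of the 16 genes in the p53 list, 8 rose and 3 fell (median 0.11), against 16 higher and 0 lower under median centring and 1 higher and 13 lower under spike-in scaling. Trp73 rose by 1.52 ± 0.21, Trp63, which maintains basal keratinocytes, by 0.90 ± 0.13 and Gadd45a, a damage response gene, by 0.59 ± 0.10, while the desmosomal p53 family target Perp was at -0.63 ± 0.20 (SD, n = 2) and fell. Among 21 known regulators of the Ink4/Arf locus, 5 rose and 4 fell (median -0.02), and 12 were not called. Median centring gave 18 higher and 1 lower, and spike-in scaling 0 higher and 21 lower. Id2, an inhibitor of helix-loop-helix factors, fell by 1.18 ± 0.07, and Tbx3 (0.44), a T-box repressor, Hells (0.29), a chromatin remodeller, and the Polycomb gene Cbx8 (0.26) rose. Among 19 genes upstream of the CIP/KIP, Ink4b and cyclin D genes, 5 rose and 7 fell (median -0.02), against 14 higher and 1 lower under median centring and 0 higher and 18 lower under spike-in scaling. Klf4 (-0.66), an activator of Cdkn1a, and the TGF-β receptor Tgfbr2 (-0.60) fell, and Egr1 (0.56) and Lef1 (0.50) rose.

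Measured from the median of all genes, the medians of the G1 kinase, S-phase and Ink4/Arf regulator lists stayed below 0 and those of the RB and E2F, other cyclin and p53 lists above 0 in every setting computed, whereas the ubiquitin ligase and upstream lists turned above 0 under median centring. Some distances were close to 0. The Ink4/Arf regulators were at -0.006 and the S-phase list at -0.03 under median centring, and the p53 list was at 0.01 with the probes of a gene averaged. Spike-in scaling and the change in the estimate of spread could not alter these distances.

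**Figure D5:**
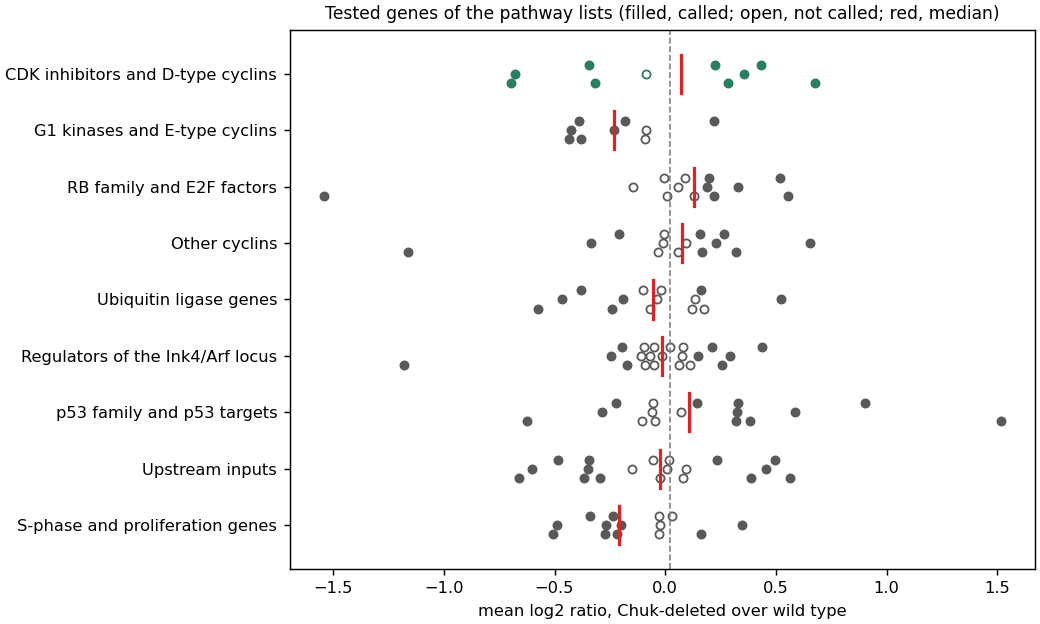
Mean log2 ratio of Chuk-deleted over wild type after loess for the tested genes of the members' set and of 8 pathway lists. Filled points passed the limma test, open points did not, red bars are list medians and the dashed line is the median of all 13739 genes at 0.02. The members are spread over both sides, and the G1 kinase and S-phase lists have the medians farthest from 0, at -0.23 and -0.21. The direction of most of their genes turned under median centring, and most calls of higher in the other lists were lost under spike-in scaling.

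Markers of keratinocyte layers and of other cell types moved with the same comparison. Beside their counts, 33.0% of all genes tested rose and 28.3% fell after loess. Measured from the median of all genes, the basal and fibroblast medians stayed above 0 and the suprabasal and melanocyte medians below 0 in every setting computed. These distances could not be altered by spike-in scaling. Spike-in scaling, however, left 2 basal markers higher and 3 lower (median -0.01) and 4 fibroblast markers higher and 3 lower (median 0.02). Krt5 and Krt14, which define basal keratinocytes, were well above background in both channels. Basal keratinocyte markers rose in 6 of 7 cases with a median of 0.75, and their summed intensity was 1177550 and 808893 in the Chuk-deleted channel, against 726576 and 491521 in the wild-type channel. All 7 suprabasal markers fell, with a median of -2.14 and sums of 4936 and 1867 in the Chuk-deleted channel, against 18514 and 11544 in the wild-type channel. Krt1 and Dsg1a were not well above background in the Chuk-deleted channel. They entered the test through the wild-type channel alone, so they could hardly have been called higher. The 5 suprabasal markers well above background in both channels all fell, with a median of -2.14. Dsg1a was at least 4.02-fold lower in the Chuk-deleted channel, a bound that is open to dye bias. Fibroblast markers rose in 8 of 10 cases (median 0.78), with sums of 385946 and 232664 in the Chuk-deleted channel, against 195520 and 96758 in the wild-type channel. The 6 tested melanocyte markers fell (median -1.15), with sums of 25282 and 14172 in the Chuk-deleted channel, against 60757 and 39335 in the wild-type channel, and Tyr was not well above background. The macrophage and Langerhans cell list had 4 of 7 genes tested, without Ptprc, Itgam and Cd207, of which 1 rose and 2 fell. Its sums were 3876 and 2354 in the Chuk-deleted channel, against 5196 and 3276 in the wild-type channel. The endothelial list had 2 of 5 tested, without Pecam1, Cdh5 and Tek, of which 1 rose and 1 fell. Its sums were 6969 and 3713 in the Chuk-deleted channel, against 10051 and 5020 in the wild-type channel. The part of these cell type differences in the members' ratios was not tested, and in bulk RNA fewer cells of a type and less RNA per cell cannot be told apart.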

How the data were processed

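RNA of both genotypes was hybridised together on 2 arrays. The deposited scanner files name Agilent Feature Extraction, version 9.1.3.1, as their source. They hold, per the file headers, each spot's mean intensity and median local background intensity, neither corrected. They also give the software's background-subtracted, dye-normalised intensity, a log10 ratio of Cy5 over Cy3 and its p-value within 1 array, per the file headers. The deposited value table repeats that log10 ratio. All sample columns used were matched to labels, and 0 were left unmatched.

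Background was corrected with normexp (offset 50) and log2 ratios, Cy5 over Cy3, were computed from the deposited intensities and normalised by loess in limma 3.58.1 (R 4.3.3, data.table version 1.17.8). Control spots had weight 0 in loess and were then left out, as were 51 and 18 outlier spots. Spots of a probe were averaged. The 23519 probes that stood well above background on each array, in 1 channel or more, were tested with lmFit and eBayes. The two-sided test set the mean ratio against 0, with Benjamini-Hochberg adjusted p-values and a threshold of 0.05. In this fit, after loess, the prior had 5.16 degrees of freedom beside 1 residual degree. A gene takes its brightest tested probe.

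Settings varied were the scaling, the source of the ratios, the background correction, the dim-probe filter, the estimate of spread, the probe rule and each array left out. Members and lists were chosen with earlier results of these data known. The rule for named genes took Chuk, every member probe and up to 4 called genes with the largest ratios of each list. Gene names follow RefSeq (GRCm38.p6).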

Additional observations from a re-analysis of the deposited data

How the results depend on the processing

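Settings that change the background correction, the filter, the estimate of spread or the probe of a gene left the counts of members called within 1.5 times. Of 112 tested comparisons of a member probe with its value as reported, 92 kept direction and side of the threshold, 10 reversed, 6 lost the call and 4 gained it. Changes of the dim-probe filter or of the estimate of spread left every member ratio as it was, so no direction could turn there. All 10 reversals came under median centring or spike-in scaling. Median centring gave 10270 genes called higher and 988 lower, 8 members higher and 0 lower, 1302 genes and 2 members at least 2-fold higher and 228 genes at least 2-fold lower. It turned Cdkn1a to 0.40, Cdkn2d to 0.56 and Ccnd1 to 0.38, and Cdkn1b (-0.15) and both Cdkn2c probes (-0.13 and -0.10) lost their calls. Scaling on the spike-ins gave 272 genes called higher and 12503 lower, 0 members higher and 9 lower, 29 genes at least 2-fold higher, and 2122 genes and 2 members at least 2-fold lower. It turned Cdkn1c to -0.33, Cdkn2a to -0.086 (adjusted p = 0.492, limma), Cdkn2b to -0.41, Ccnd3 to -0.54 and the Ccnd2 probes to -0.45, -0.26 and -0.48. Spike-in scaling moves all genes of an array by 1 amount, while median centring moved genes by different amounts. The calls under both rest on another estimate of spread than those after loess. The software's ratios gave 437 genes at least 2-fold higher and 684 lower, and the calls of Ccnd1, Ccnd3 and 1 Ccnd2 probe (adjusted p = 0.0516, limma) were lost; the cause was not tested. Cdkn1b probe A_51_P169173 was called lower with the software's ratios (-0.30), offset 16 (-0.19) and spike-in scaling (-0.90). With 1 array left out, 225 to 338 genes were at least 2-fold higher and 463 to 581 lower, with 0 members in either count, all 28 values of the member probes kept their direction, and no residual degrees of freedom were left for a test. No paired analysis was possible because the arrays form 1 group and each already pairs its channels. Cdkn2a was 0.68 as reported, 0.67 without background correction and 1.05 with the software's ratios. Signal over background kept Cdkn1b probe A_52_P673863 out of the test.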

Other observations

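The genes next to the members on the chromosome (RefSeq order, GRCm38.p6) were also read, after loess. Their values under other scalings are not given here. Of all genes tested 61.3% were called, so a neighbour's call is not read as linked to the member. Gpr19, a receptor gene beside Cdkn1b, averaged -0.26 (adjusted p = 0.0122, limma with Benjamini-Hochberg adjustment). Beside Ccnd1, LTO1 averaged -0.55 (adjusted p = 0.000319, limma with Benjamini-Hochberg adjustment) and Tpcn2 averaged 0.24 (adjusted p = 0.00689, limma with Benjamini-Hochberg adjustment). Beside Cdkn2d, Kri1 had log2 ratios of 0.34 and 0.45 (adjusted p = 0.00136, limma with Benjamini-Hochberg adjustment), and Ap1m2, a clathrin adaptor subunit of epithelial cells, had -0.50 and -0.70 (adjusted p = 0.000471, limma with Benjamini-Hochberg adjustment), on either side of a member that was not called. Beside Ccnd2, Tigar, a regulator of glycolysis, had -0.32 and -0.23 (adjusted p = 0.00549, limma with Benjamini-Hochberg adjustment), and Parp11 had 0.31 and 0.40 (adjusted p = 0.00187, limma with Benjamini-Hochberg adjustment). Srsf3, a splicing factor beside Cdkn1a, had ratios of -0.11 and 0.14, which differ in sign. Taf8 and Bysl, beside Ccnd3, averaged -0.10 and -0.01 and were not called. Kcnq1, in the imprinted region of Cdkn1c, averaged -0.20 (adjusted p = 0.0155, limma with Benjamini-Hochberg adjustment), opposite in sign to Cdkn1c, and Slc22a18 on its other side averaged 0.04 (adjusted p = 0.519, limma with Benjamini-Hochberg adjustment).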
